A study of Homo sapiens with 6 samples.

Results

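The genes described here are 38 genes of amino acid supply, 32 of them transporter genes of the solute carrier (SLC) families and 6 of them the stress transcription factor gene ATF4 with 5 of its target genes. They were taken by gene symbol from a list written by function, with earlier results of these data known. All 38 were found among the 18129 genes tested on the arrays. Each gene was read at its brightest probe set that the platform annotation assigns to that gene alone. RNA came from UMUC3-c31 cells, which carry the name of the human bladder carcinoma line UMUC3. Cells of both groups spent 24 h in charcoal-stripped serum, which is depleted of steroid hormones, and then 24 h either with 10 nM of the synthetic androgen R1881 (3 arrays) or with the ethanol vehicle (3 arrays). The submitters describe the 3 samples of a group as biological replicates. All values come from this 1 line, and nothing used here says how c31 was made.

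Amino acid transporters work as exchangers, as cotransporters driven by sodium, chloride or proton gradients, or as facilitated carriers, and several need a heavy chain partner to reach the cell surface. ATF4 is made when the translation factor eIF2 is phosphorylated under amino acid shortage or other stress, so its protein is set largely by translation and its transcript is only a partial readout. The protein binds composite C/EBP-ATF response elements and raises genes of amino acid import, serine and asparagine synthesis and tRNA charging. In prostate cells androgen is known to raise some amino acid carriers, among them SLC1A4, SLC1A5 and SLC43A1.

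The response element was looked for in the promoters of the 38 genes, since ATF4 acts through it. RefSeq promoter windows, from 250 bases before to 50 bases after a listed start on build GRCh38.p14, were found for 31 of the 38 genes. They made 56 windows because some genes have several starts. SLC6A6 and SLC43A3, described below as higher with R1881, had no window, so their promoters were not searched. The letters TGATGNAA, on either strand, were present in windows of 8 of the 31 genes, and before the start in 4 of them. By window that is 8 of 56 (14.3%), and 4 (7.14%) before the start, beside 3.62% and 3.14% of all 35116 windows in the table. By gene, 4.46% of the 27305 genes in the table held the letters and 3.89% before the start, and genes differ in their number of windows. The 4 stretches before the start are given 5′ to 3′ on the gene's strand, 60 bases each, with the match in capitals. In CHAC1 the match reads on the opposite strand.

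ASNS, chr7:97872443-97872502, minus strand, match 68 bases before the start: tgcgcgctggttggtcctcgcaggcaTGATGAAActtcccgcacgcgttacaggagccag
CHAC1, chr15:40953236-40953295, plus strand, match 209 bases before the start: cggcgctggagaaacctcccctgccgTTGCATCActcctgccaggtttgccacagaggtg
SLC1A3, chr5:36596342-36596401, plus strand, match 220 bases before the start: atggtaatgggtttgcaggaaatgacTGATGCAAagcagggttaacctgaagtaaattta
SLC1A5, chr19:46784878-46784937, minus strand, match 97 bases before 1 of its 3 listed starts: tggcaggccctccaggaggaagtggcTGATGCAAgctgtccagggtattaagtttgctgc

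The matched letters were TGATGCAA in SLC1A3 and SLC1A5 and TGATGAAA in ASNS. In SLC1A4 and SLC38A1 a match lay across a start, and in SLC3A2 and SLC7A1 one lay after it. The steroid receptor motif, written here as GNACA and TGTNC separated by 3 bases and looked for on both strands, was in none of the 56 windows, beside 0.39% of all windows. A match is a description of the letters and not of binding. These windows leave out distant enhancers and the promoters of SLC6A6 and SLC43A3.

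The arrays separated by treatment on the first principal component, and the steroid target FKBP5 was 2.80-fold higher with R1881 (limma, adjusted p = 3.2e-05). Of 10 steroid receptor and response genes measured, 4 rose (FKBP5, NDRG1, TSC22D3 and NR3C1) and 6 did not pass. The androgen targets KLK3 and TMPRSS2 were among those 6. NR3C1 passed narrowly (limma, adjusted p = 0.0462) and lost its call without vehicle replicate 1 (0.124). The other 3 passed in that fit too. On the second component vehicle replicate 1 scored 11, while vehicle replicates 2 and 3 scored -8.21 and -6.99. It lay outside the other vehicle arrays by more than the gap between them in 9 of the 27 members above background (33.3%). Of all genes above background this was so in 46.3%. Among 3 values without ties 1 always meets this rule, so arrays of equal spread would each meet it in about 1 of 3 genes. The members did not exceed that share. Either group exceeded background for 6 of the 15 urothelial markers measured. These were the keratin genes KRT18, KRT8 and KRT7, the uroplakin gene UPK1A, and GATA3 and FOXA1 in 1 group each. UPK1A (means of 5.08 with R1881 and 5.03 with vehicle), GATA3 (5.02 with R1881) and FOXA1 (5.01 with vehicle) lay close to the background level of 4.991. The uroplakin genes UPK1B, UPK2 and UPK3A, the keratin genes KRT5, KRT13 and KRT19, and PPARG, ELF3 and GRHL3 lay below it. KRT7 rose by 0.40 (adjusted p = 0.0192, and 0.0657 without vehicle replicate 1) and KRT18 fell by 0.37 on the log2 scale. Among 13 markers of immune, endothelial and fibroblast cells this held for 2, and none passed the test (1 had an unadjusted p under 0.05 by limma). For these 13 markers the summed log2 values ran from 49.41 to 50.52 in R1881 arrays and from 49.41 to 50.2 in vehicle arrays. Their part in the results was not tested.

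R1881 raised 2 of the 38 genes, the taurine transporter gene SLC6A6 and the SLC43 family gene SLC43A3, and lowered none. ATF4 and its 5 targets did not pass the test, nor did the main carriers of glutamine, leucine, cystine and arginine. Calls rest on an adjusted p under 0.05 from limma's moderated test over all 18129 genes. By that rule 1.60% of all genes rose and 0.816% fell, and 5.26% of the 38 rose. Signals under 4.991 on the log2 scale were treated as background, a level taken from olfactory receptor and keratin-associated protein genes. Both genes that rose were among the 27 members above it, beside 2.54% of genes above background that rose and 1.31% that fell. With 2 genes called, these shares carry little weight. An unadjusted p under 0.05 was found for 8 of the 38 members higher and 1 lower (SLC38A6), beside 7.07% and 7.19% of all genes. Of the 8 higher, 3 lay below background in both groups. The median change over the 38 was 0.047 on the log2 scale, beside 0.0 over all genes. By sign 25 were higher and 13 lower (65.8% higher, beside 49.8% of all genes). Of the 11 members below background 9 were higher by sign. Of the 27 above background 16 were, beside 5342 of all 11049 genes above background. All 3 R1881 arrays lay above all vehicle arrays in 5 members (13.2%, beside 8.53% of all genes) and below them in 2 (5.26%, beside 9.93%). Of these 5 members, 1 lay below background in both groups.

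**Figure D1:**
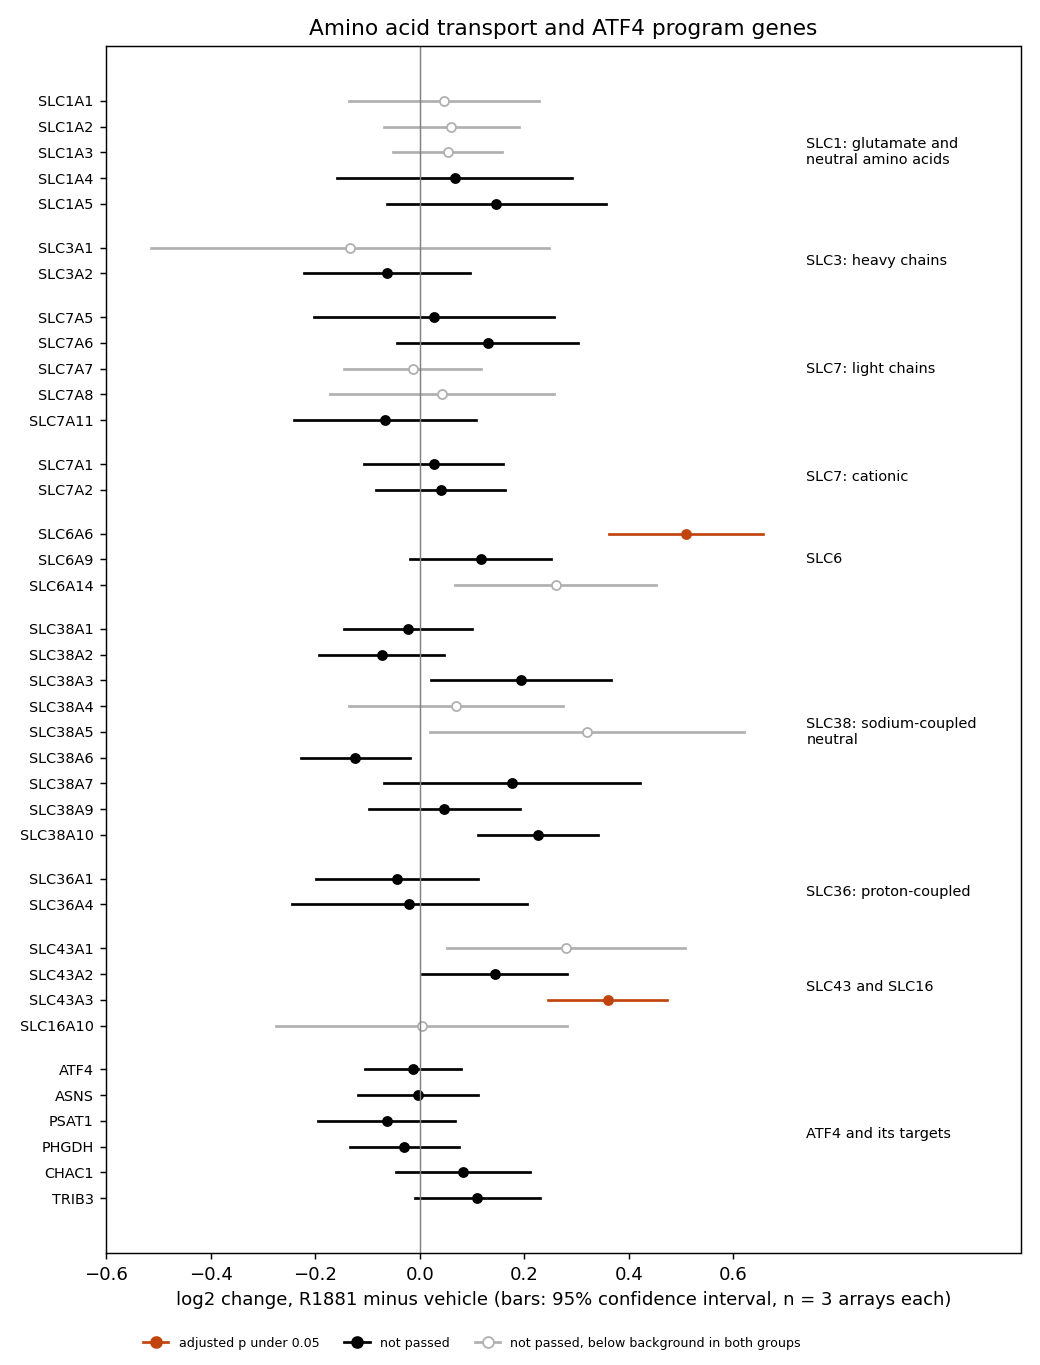
Change in each of the 38 genes, as log2 of R1881 minus vehicle on the horizontal axis, with 95% confidence intervals from limma (n = 3 arrays each), grouped by family. SLC6A6 at 0.51 and SLC43A3 at 0.36 are the genes that passed, open grey points lay below background in both groups, and the ATF4 group sits between -0.06 and 0.11.

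SLC6A6 carries taurine, a sulphur-containing amino acid that is not built into protein and serves as an osmolyte, into the cell with sodium and chloride. Its transcript read 9.75, 9.70 and 9.61 on the log2 scale in the R1881 arrays, against 9.16, 9.27 and 9.10 in the vehicle arrays. The lowest R1881 array stood above the highest vehicle array, so the groups did not overlap. The change was 0.51 ± 0.06 (SE), or 1.42-fold with a 95% confidence interval of 1.29 to 1.58 (limma, adjusted p = 0.00783). An exact two-sided permutation test on these 6 values gave p = 0.10, the smallest that 3 against 3 arrays allow. RNA from a whole culture does not tell a change in every cell from a change in some cells.

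All 5 probe sets of SLC6A6 were higher with R1881, by 0.16 to 0.51, and 2 of them passed when every one of the 44898 single-gene probe sets was tested. The dimmer of these 2 had means of 3.84 and 3.39 in R1881 and vehicle arrays, below background in both groups. The set that was higher by 0.16 also lay below background. The call was lost without R1881 replicate 2 (adjusted p = 0.0548, with a change of 0.50). Without vehicle replicate 1 the adjusted p was 0.0477.

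The other SLC6 genes of the set, SLC6A9 and SLC6A14, did not pass. SLC6A9, a glycine transporter, read 6.53, 6.68 and 6.65 with R1881, against 6.53, 6.54 and 6.44 with vehicle, so that the lowest R1881 array and 2 vehicle arrays lay within 0.01 of each other. Its change was 0.12 ± 0.06 (adjusted p = 0.414), and all 7 of its probe sets were higher by sign, by 0.01 to 0.31. SLC6A14, a broad carrier of neutral and cationic amino acids, lay below background in both groups, with means of 3.38 and 3.12 in R1881 and vehicle arrays.

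SLC43A3 belongs by sequence to a family of facilitated amino acid carriers but is itself known as a transporter of purine nucleobases. It read 7.84, 7.89 and 7.88 in the R1881 arrays, against 7.48, 7.47 and 7.58 in the vehicle arrays. Every R1881 value was higher than every vehicle value, and the spread within each group was small, with SDs of 0.03 and 0.06 (n = 3 each). The change was 0.36 ± 0.05 (SE), or 1.28-fold with an interval of 1.19 to 1.39 (adjusted p = 0.0118). Its 3 own probe sets were all higher, by 0.20 to 0.37, and 2 passed over all sets. One further set is annotated to both SLC43A3 and PRG2, and it stood at 0.04 ± 0.06. The call was lost with the replicate number as a block (adjusted p = 0.0586), and when R1881 replicate 2 or 3 or vehicle replicate 1 or 2 was left out (adjusted p from 0.0507 to 0.0692). Its change ran from 0.340 to 0.395 over the 6 fits that leave out an array.

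The amino acid carriers of the same family did not pass. SLC43A2, a carrier of branched-chain amino acids and phenylalanine, read 7.51, 7.34 and 7.37 with R1881, against 7.21, 7.29 and 7.29 with vehicle, with no overlap and a change of 0.14 ± 0.06 (adjusted p = 0.336). SLC43A1, the close relative that prostate cells use for leucine, lay below background in both groups (means of 4.79 and 4.51 in R1881 and vehicle arrays), and so did the aromatic amino acid carrier gene SLC16A10 (means of 3.96 in both). No fold is given for these.

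**Figure D2:**
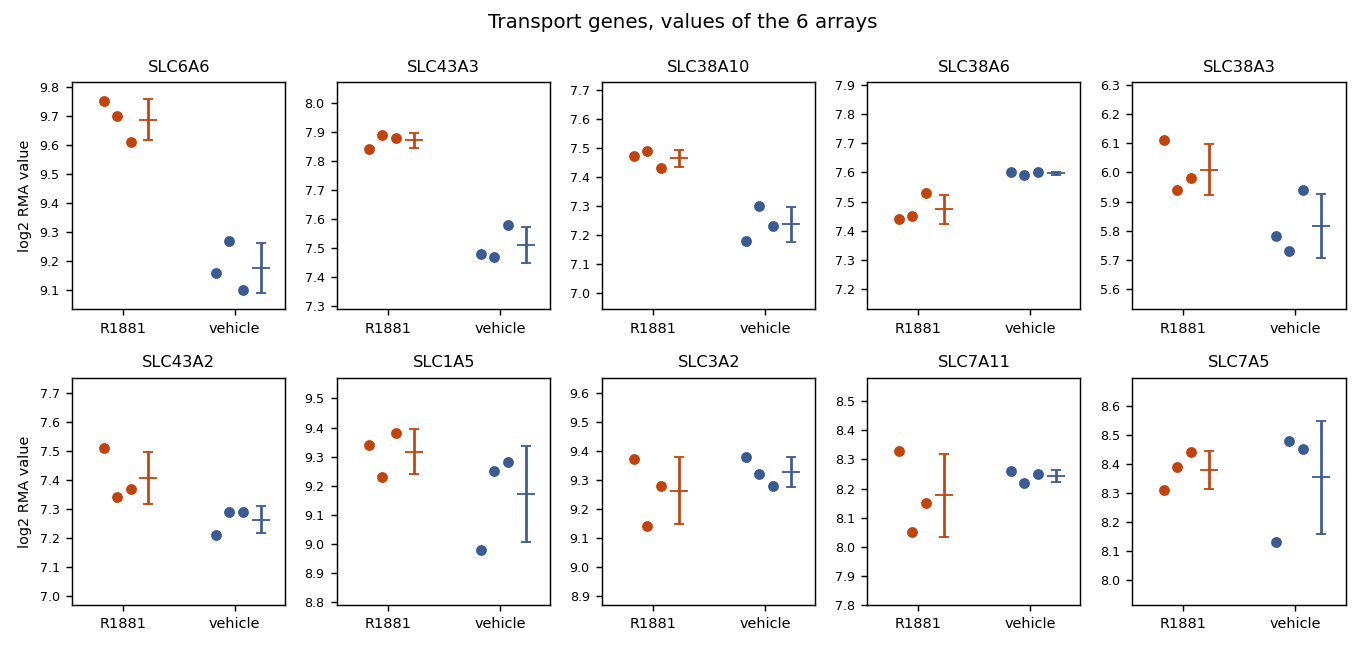
Log2 values of the 6 arrays for 10 transport genes above background, R1881 left and vehicle right in each panel, with mean and SD beside the points (n = 3 each) and the same axis span in every panel. SLC6A6, SLC43A3, SLC38A10 and SLC43A2 show R1881 arrays above all vehicle arrays, SLC38A6 shows them below, and in SLC1A5 and SLC7A5 vehicle replicate 1 is the lowest array.

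The heavy and light chains that form the large neutral, cystine and cationic exchangers did not pass the test in any of 7 genes. SLC3A2, the heavy chain that most of these carriers need, read 9.37, 9.14 and 9.28 with R1881, against 9.38, 9.32 and 9.28 with vehicle. The ranges overlapped, and the change was -0.06 ± 0.07 (adjusted p = 0.706, interval -0.22 to 0.10). Its 7 probe sets were all lower by sign, by 0.02 to 0.12, and none passed. SLC7A5, the light chain for leucine and other large neutral amino acids, read 8.31, 8.39 and 8.44 with R1881, against 8.13, 8.48 and 8.45 with vehicle. Vehicle replicate 1 was the lowest array there, and the change of 0.03 ± 0.10 became -0.085 without it, with neither past the threshold. SLC7A11, the cystine and glutamate exchanger that feeds glutathione synthesis, read 8.33, 8.05 and 8.15 with R1881, against 8.26, 8.22 and 8.25 with vehicle. The R1881 arrays lay on both sides of the vehicle arrays, and the interval of the change ran from -0.24 to 0.11. SLC7A6, which exchanges cationic for neutral amino acids, stood at 0.13 ± 0.07 (adjusted p = 0.472). The light chain genes SLC7A7 and SLC7A8 and the heavy chain gene SLC3A1, best known from kidney and intestine, lay below background in both groups.

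The cationic amino acid carriers for arginine and lysine did not pass either. SLC7A1 stood at 0.03 ± 0.06, with an interval of -0.11 to 0.16, and SLC7A2 at 0.04 ± 0.05, with an interval of -0.08 to 0.16 (limma, adjusted p of 0.860 and 0.766).

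Among the SLC1 genes, those for neutral amino acids were above background and those for glutamate and aspartate were not. SLC1A5, the sodium-dependent exchanger through which many tumour cells take up glutamine, read 9.34, 9.23 and 9.38 with R1881, against 8.98, 9.25 and 9.28 with vehicle. The lowest R1881 value fell below 2 of the 3 vehicle values, and the change was 0.15 ± 0.09 (adjusted p = 0.499, interval -0.06 to 0.36). Without vehicle replicate 1 it was 0.052. SLC1A4, its relative for alanine, serine and cysteine, stood at 0.07 ± 0.10 (adjusted p = 0.788). The glutamate transporter genes SLC1A1, SLC1A2 and SLC1A3 had means of 3.97, 4.95 and 4.21 in R1881 arrays, against 3.92, 4.89 and 4.16 in vehicle arrays, all below background.

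One of the dimmer probe sets of SLC1A3 behaved unlike the set used for the gene. It read 4.05, 4.19 and 4.19 with R1881, against 3.37, 3.26 and 3.44 with vehicle, a change of 0.79 ± 0.07 that passed over all probe sets (adjusted p = 0.00219). The other 4 sets of the gene stood between -0.03 and 0.17 and did not pass, and all 5 lay below background in both groups. Over all 127 probe sets of the 38 genes, 5 passed as higher and none as lower, beside 1.14% and 0.468% of all single-gene probe sets. These 5 were 2 sets each of SLC6A6 and SLC43A3 and the 1 set of SLC1A3. The dimmer SLC6A6 set, like that of SLC1A3, lay below background.

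**Figure D3:**
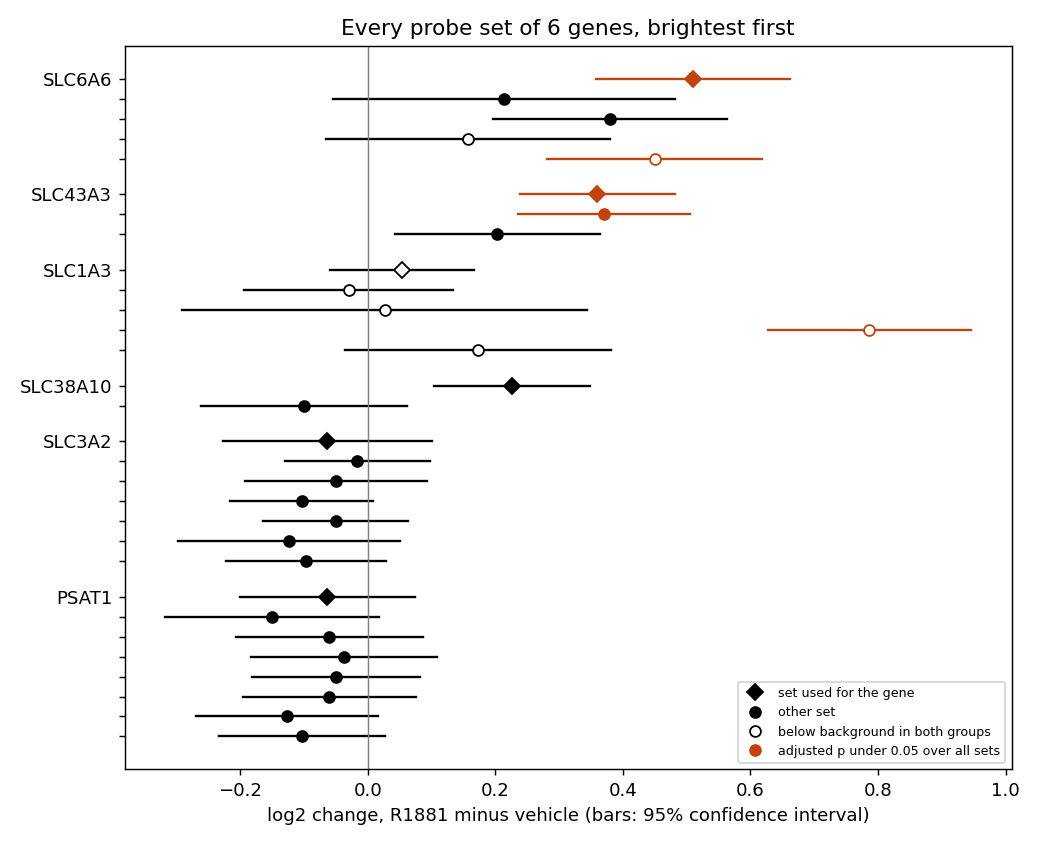
Change at every probe set of 6 genes as log2 of R1881 minus vehicle with 95% confidence intervals, brightest set of each gene at the top. All sets of SLC6A6 and SLC43A3 lie right of zero, all of SLC3A2 and PSAT1 left of it, and 1 set of SLC1A3 at 0.79 lies apart from its other sets below the background level.

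The SLC38 genes encode sodium-coupled carriers of glutamine and other small neutral amino acids, some of them at the lysosome. Of the 9, none passed the test. SLC38A1 and SLC38A2, the widely expressed plasma membrane carriers, stood at -0.02 ± 0.05 and -0.07 ± 0.05, with intervals of -0.15 to 0.10 and -0.19 to 0.05 (limma, adjusted p of 0.868 and 0.557). SLC38A2 is a known ATF4 target that cells raise when amino acids run short. SLC38A10 came nearest to the threshold, with 7.47, 7.49 and 7.43 in R1881 arrays, against 7.18, 7.30 and 7.23 in vehicle arrays. The groups did not overlap, and the change was 0.23 ± 0.05 (adjusted p = 0.0760). It passed with a trended, robust prior (adjusted p = 0.0372) and among genes above background alone (0.0265). Its second probe set stood at -0.10 ± 0.07, so that the mean over both sets was 0.063.

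The other SLC38 genes were spread to both sides. SLC38A6 read 7.44, 7.45 and 7.53 with R1881, against 7.60, 7.59 and 7.60 with vehicle, a difference of -0.12 ± 0.04 without overlap (adjusted p = 0.276). SLC38A3, a glutamine carrier best known from liver and brain, stood at 0.19 ± 0.07 (adjusted p = 0.296). SLC38A7, a lysosomal glutamine exporter, stood at 0.18 ± 0.10, but at 0.055 without vehicle replicate 1 and 0.057 over all its probe sets. SLC38A9, the lysosomal arginine sensor of the growth kinase complex mTORC1, stood at 0.05 ± 0.06. SLC38A4 and SLC38A5 lay below background in both groups. SLC36A1, a proton-coupled carrier that also acts at the lysosome, and its relative SLC36A4 stood at -0.04 ± 0.07 and -0.02 ± 0.10.

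ATF4 itself read 12.28, 12.27 and 12.28 in R1881 arrays, against 12.29, 12.29 and 12.29 in vehicle arrays. These values come from its only single-gene probe set, an x set, which can pick up related sequences. The groups did not overlap, but the gap between them was 0.01, the last digit of the deposited values. The change was -0.01 ± 0.04, with an interval of 0.930 to 1.06-fold (adjusted p = 0.904). This signal lies above 12 on the log2 scale, near the top of the array's range, where changes can be compressed, which was not tested.

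The synthesis enzymes under ATF4 control did not pass. ASNS, asparagine synthetase, whose promoter element is printed above, read 10.95, 10.93 and 10.98 with R1881, against 10.92, 10.92 and 11.03 with vehicle. The R1881 values lay within the vehicle range, and the change of -0.003 ± 0.05 had an interval of 0.921 to 1.08-fold. All 4 ASNS probe sets were lower by sign, at -0.12 to -0.003, and none passed. At 1 of them the groups did not overlap, with a change of -0.12 (limma, adjusted p = 0.368 over all sets). PSAT1, the aminotransferase of serine synthesis, read 11.14, 11.26 and 11.24 with R1881, against 11.21, 11.28 and 11.34 with vehicle, a change of -0.06 ± 0.06 (adjusted p = 0.643). All 8 of its probe sets were lower by sign, by 0.04 to 0.15, and none passed. PHGDH, the first enzyme of that pathway, read 10.44, 10.35 and 10.42 with R1881, against 10.44, 10.44 and 10.42 with vehicle, a change of -0.03 ± 0.04 (adjusted p = 0.794).

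The stress-linked targets did not pass either. CHAC1, which degrades glutathione and is strongly induced by ATF4, read 6.07, 6.16 and 6.21 with R1881, against 6.07, 6.11 and 6.01 with vehicle, so that 1 R1881 array equalled a vehicle array. Its change was 0.08 ± 0.05 (adjusted p = 0.531). TRIB3, a pseudokinase that feeds back on ATF4, read 9.37, 9.29 and 9.42 with R1881, against 9.22, 9.29 and 9.24 with vehicle, again with 1 tie between the groups. The change was 0.11 ± 0.05 (adjusted p = 0.386, interval -0.01 to 0.23). Over the 6 genes the median change was -0.008, and at the sets used no interval reached beyond 0.874 or 1.17-fold.

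**Figure D4:**
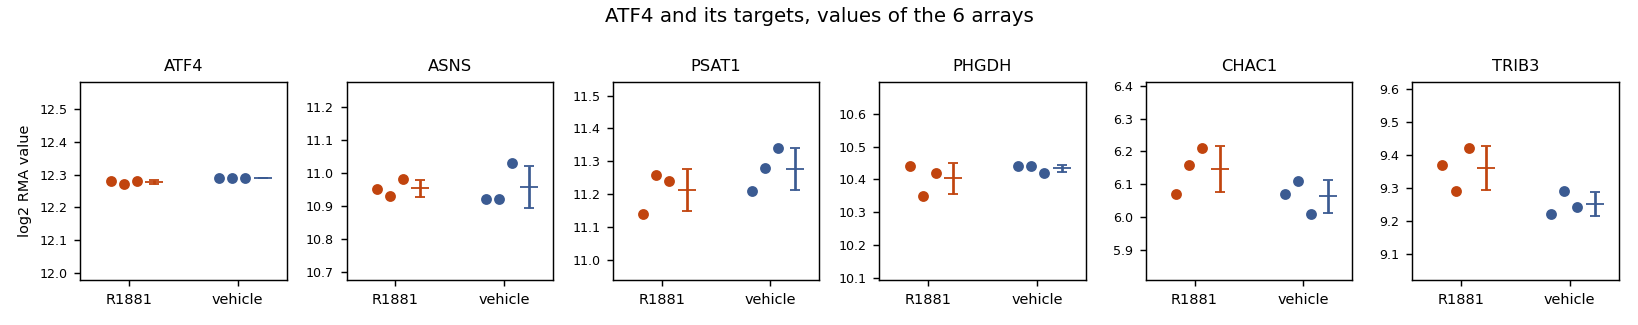
Log2 values of the 6 arrays for ATF4 and 5 of its targets, R1881 left and vehicle right, with mean and SD (n = 3 each) and the same axis span in every panel. The groups overlap or tie in all panels except ATF4, where the gap is 0.01.

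The intervals give the size of change that these arrays leave possible at the 1 probe set used for each gene. Other sets above background can allow more. On the log2 scale 1 set of SLC38A1 had an interval of -0.564 to 0.097, and 1 of SLC7A2 had -0.145 to 0.472. Of the 25 members above background that did not pass, 21 had a 95% confidence interval wholly within 1.25-fold either way and all 25 within 1.5-fold. The 11 genes below background give no such limit.

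Genes around the same pathways were read from lists written by function, but with earlier results of these data known. Of 23 further ATF4 targets measured, 2 were higher past the threshold and none lower, with a median of -0.003. Over all genes 1.60% were higher and 0.816% lower past it. NUPR1, a small stress-induced chromatin protein, read 7.32, 7.16 and 7.35 with R1881, against 6.68, 6.79 and 6.78 with vehicle, a change of 0.53 ± 0.06 or 1.44-fold (adjusted p = 0.00807). STC2, a secreted glycoprotein, read 7.70, 7.62 and 7.57 with R1881, against 7.33, 7.34 and 7.30 with vehicle, a change of 0.31 ± 0.05 (adjusted p = 0.0246). Both genes were higher in every R1881 array than in any vehicle array. STC2 lost its call in each of the 6 fits with an array removed (adjusted p from 0.0527 to 0.116), with the replicate block (0.0841) and with the mean of its probe sets (0.229), and NUPR1 without R1881 replicate 1 (0.0554) and with the block (0.0501). The targets that belong to amino acid metabolism did not pass: SHMT2 and MTHFD2 of one-carbon metabolism stood at -0.09 ± 0.05 and -0.01 ± 0.06, PSPH of serine synthesis at -0.17 ± 0.07 and PYCR1 of proline synthesis at 0.05 ± 0.04. Of the 23, 7 had an unadjusted p under 0.05 by limma, 5 higher and 2 lower, beside 7.07% and 7.19% of all genes. Besides NUPR1 and STC2 the higher ones were CEBPB (0.37 ± 0.08, adjusted p = 0.0690), VLDLR (0.28 ± 0.06, adjusted p = 0.0800) and DDIT4 (0.19 ± 0.04, adjusted p = 0.0988), and the lower ones DDIT3 (-0.15 ± 0.06) and XPOT (-0.14 ± 0.05). The stress factor gene ATF3 stood at 0.003 ± 0.07.

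Of 19 tRNA synthetase genes none passed, with a median of -0.02 and 2 at an unadjusted p under 0.05 by limma, both lower, beside the 7.19% of all genes lower at that level. These were RARS1 at -0.13 ± 0.05 and FARSB at -0.12 ± 0.05. Of 18 genes that sense or relay eIF2 phosphorylation, 1 rose and none fell, beside 1.60% and 0.816% of all genes. That gene was EIF2B2, a subunit of the exchange factor that reloads eIF2, with 9.47, 9.46 and 9.47 in R1881 arrays, against 9.19, 9.17 and 9.21 in vehicle arrays. The change was 0.28 ± 0.04 without overlap (adjusted p = 0.0156), and its other probe set stood at 0.20 (adjusted p = 0.233). The set used carries an s in its name, which marks sets that can pick up related sequences. On sets without s or x the change was 0.20 and the call was lost (adjusted p = 0.21). EIF2B2 also lost its call with the block (0.0864) and without any 1 array but vehicle replicate 1 (0.0637 to 0.0759). Of the 18, 4 had an unadjusted p under 0.05 by limma, 2 higher and 2 lower, beside 7.07% and 7.19% of all genes. Besides EIF2B2 the higher one was the eIF2 kinase gene EIF2AK3, at 0.22 ± 0.06 without overlap (adjusted p = 0.142). The lower ones were EIF2B3 (-0.12 ± 0.05) and OMA1 (-0.10 ± 0.04). EIF2AK4, the kinase that senses uncharged tRNA, stood at 0.003 ± 0.05.

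Among 33 genes through which mTORC1 senses amino acids, 2 rose and 1 fell, beside 1.60% and 0.816% of all genes. CASTOR1, a cytosolic arginine sensor that restrains mTORC1 when arginine is low, read 5.98, 6.05 and 6.04 with R1881, against 5.13, 5.39 and 5.51 with vehicle. Its change was 0.68 ± 0.09, or 1.60-fold with an interval of 1.37 to 1.87 (adjusted p = 0.0134). Vehicle replicate 1 was the lowest array, and without it the change was 0.573 with an adjusted p of 0.0144, while the call was lost without vehicle replicate 2 or any 1 R1881 array (0.0655 to 0.0865). SESN1, a relative of the leucine sensor, rose by 0.27 ± 0.05 (adjusted p = 0.0425), but its other probe set stood at -0.19, so that the mean over both was 0.037. FNIP1, a partner of folliculin, fell by 0.25 ± 0.04 (adjusted p = 0.0377). The fall was seen on its s and x probe sets (-0.24 and -0.25), which can pick up related sequences. Its other sets stood at 0.07 and 0.17, but they lay below background in every array. SESN1 and FNIP1 lost their calls without any 1 of the 6 arrays (adjusted p from 0.0809 to 0.159) and with the block (0.137 and 0.111).

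Of 30 further amino acid transporter genes, mitochondrial and lysosomal ones included, none passed and 1 had an unadjusted p under 0.05 by limma, SFXN3 at 0.27 ± 0.08. SFXN3 stood at 0.177 without vehicle replicate 1, its lowest array, and at 0.040 on probe sets without s or x. The next was SLC25A44 at 0.16 ± 0.07. Of 20 enzymes of glutamine, branched-chain amino acid, arginine and glutathione metabolism, 1 fell and none rose. Over all genes 0.816% fell and 1.60% rose. ARG2, the mitochondrial arginase that splits arginine into ornithine and urea, read 5.79, 5.94 and 6.02 with R1881, against 6.58, 6.43 and 6.36 with vehicle. All R1881 arrays lay below all vehicle arrays, and the change was -0.54 ± 0.08, or 0.688-fold with an interval of 0.603 to 0.785 (adjusted p = 0.0189). Both of its probe sets passed, at -0.54 and -0.40. The call was lost with the block (0.105) and without R1881 replicate 1 or 2 or vehicle replicate 1 or 2 (0.0657 to 0.0934), with a change of -0.478 without vehicle replicate 1. In the fit without vehicle replicate 1, the lists held 1 rise among ATF4 targets, 1 among eIF2 genes and 1 among mTORC1 genes, and no falls.

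**Figure D5:**
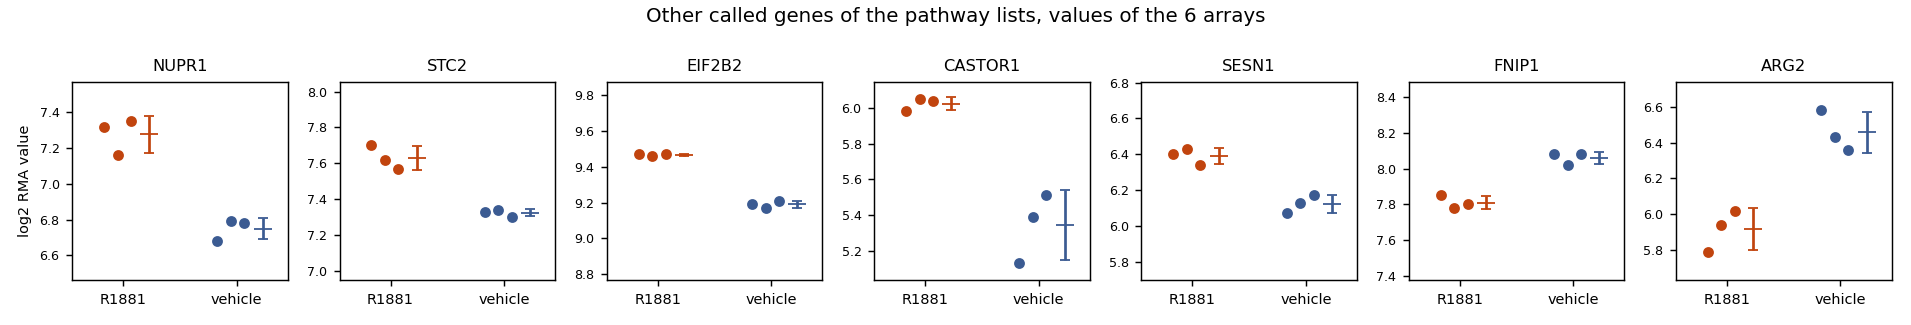
Log2 values of the 6 arrays for the 7 called genes of the surrounding lists, R1881 left and vehicle right, with mean and SD (n = 3 each) and the same axis span in every panel. NUPR1, STC2, EIF2B2, CASTOR1 and SESN1 lie higher and FNIP1 and ARG2 lower with R1881, with no overlap in any panel.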

How the data were processed

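Each of the 6 RNA samples was labelled with biotin and measured on 1 Affymetrix array. The authors deposited 1 log2 value per probe set and array, and the submitters' processing notes name RMA. This method corrects background, normalizes between arrays and summarises probes, so a shift of all genes in one direction is not visible. No source used here gives its version or any filter. Values carry 2 decimals, array medians ran from 5.49 to 5.51, and 3 arrays per group limit the precision. Detection calls were not used here.

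Of 49193 probe sets, 44898 had 1 gene symbol, and these gave 18129 genes, each read at the set with the highest mean over the 6 arrays. Of the 38 members, 12 were on sets whose names carry s or x, which can pick up close relatives. Groups were compared with limma 3.58.1 in R 4.3.3 (lmFit, eBayes, no trend), R1881 minus vehicle, with two-sided p-values, Benjamini-Hochberg adjustment over all genes and a threshold of 0.05. Errors are standard errors of that fit unless marked SD. The fit was tested on simulated data. Background was the 90th percentile of the means of 423 olfactory receptor and keratin-associated protein genes. Named genes were all members, and in each other list those past the threshold, otherwise the 2 with the smallest p. Outside that rule, and after their values were seen, SHMT2, MTHFD2, PSPH, PYCR1, ATF3 and EIF2AK4 were named for their function. CEBPB, VLDLR, DDIT4, DDIT3, XPOT, EIF2AK3, EIF2B3 and OMA1 were named in the same way for their unadjusted p. KLK3, TMPRSS2 and the urothelial markers that did not pass were named likewise as checks of the cells. The markers of other cells are given by counts. Members and lists were chosen with earlier results of these data known.

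Results were recomputed after re-centring, after a further quantile normalization, without dim genes, with a trended and robust prior, with array weights, with the replicate number as a block, under 3 other treatments of probe sets and without each array in turn. Scanner files and probe sets with several genes or none were left out.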

Additional observations from a re-analysis of the deposited data

Results flagged for a closer look

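A probe set of SLC1A3 that took no part in the gene comparison, because another set of the gene was brighter, was higher in R1881 arrays by 0.79 on the log2 scale. Its means were 4.14 with R1881 and 3.36 with vehicle, both below the background level of 4.991. The other 4 sets stood between -0.03 and 0.17.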

How the results depend on the processing

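The number of genes changed was 438, and it was 757 among genes above background alone, 895 with a trended and robust prior, 222 with the replicate block and 209 to 270 with 1 array left out. Same-numbered samples of the 2 groups deviated together only weakly, with correlations of 0.0922, 0.0568 and 0.0327. Differently numbered samples gave lower ones, from -0.0682 to 0.0279. These values do not settle whether the numbers mark pairs, and the main fit did not take them as pairs. Of the 38 members, 1 rose with the replicate block and 0 to 2 with 1 array left out, and none fell under any of the 15 alternatives. SLC6A6 kept its call in all 9 fits with every array and SLC43A3 in 8 of them. Members near zero changed sign without passing. With the mean over a gene's probe sets SLC1A4 stood at -0.023, SLC3A1 at 0.005, SLC7A1 at -0.030, SLC38A9 at -0.034, SLC36A1 at 0.041 and SLC16A10 at -0.068. With array weights SLC7A5 stood at -0.026, SLC36A4 at 0.014 and SLC16A10 at -0.035. SLC16A10 stood at -0.007 after re-centring and -0.010 after another quantile normalization. On sets without s or x SLC38A9 stood at -0.123. On such sets FNIP1, which is not one of the 38 and fell by 0.25 in the main fit, stood at 0.173. The FNIP1 set used there lay below background in every array. Over the mean of their probe sets SLC43A2 stood at 0.057, SLC7A6 at 0.048 and TRIB3 at 0.048, and with 1 array left out SLC43A2 stood at 0.092 (R1881 replicate 1) and SLC7A6 at 0.063 (vehicle replicate 2). With 1 array left out the ranges were -0.022 to 0.033 for ASNS, -0.095 to 0.115 for SLC16A10, -0.033 to 0.097 for SLC1A1, -0.032 to 0.143 for SLC1A4, -0.085 to 0.010 for SLC36A1, -0.097 to 0.068 for SLC36A4, -0.012 to 0.138 for SLC38A4, -0.217 to 0.033 for SLC3A1, -0.022 to 0.068 for SLC7A1, -0.085 to 0.090 for SLC7A5, -0.058 to 0.032 for SLC7A7 and -0.038 to 0.122 for SLC7A8. The cause was not tested, beyond the probe sets or arrays each fit leaves out.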
